A study of Mus musculus with 12 samples.

Results

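The Hedgehog pathway genes Gli1, Gli2, Gli3, Ptch1, Hhip, Smo, Sufu, Gas1 and Boc were followed through the whole series. They were chosen by name, with earlier results of these data known, and all 9 were found among the 54100 genes listed in every count file. RNA was measured in 12 libraries of mouse cells labelled C57BL/6J, in 6 groups of 2. In the first comparison, 2 libraries treated with SSTC3, a small molecule that activates CK1α (the kinase encoded by Csnk1a1), were set against 2 treated with DMSO. The labels call these cells knockout BMDM (bone marrow-derived macrophages) and number the knockout from TREX1-KO to TREX4-KO over the 4 libraries, so treated and control libraries alike carry a TREX knockout label. In the second, cells labelled MEF (mouse embryonic fibroblasts) with CK1a overexpression (group CK1a_OV) were set against OV_control, and in the third, MEF with CK1a siRNA (group CK1a_siRNA) against knockdown_control. The labels do not give dose, duration, construct, siRNA sequence, age or passage, and they do not say whether the 2 libraries of a group came from separate cultures. Each p-value therefore rests on library-to-library spread alone, and that may be technical. With 2 libraries a group, this spread is estimated largely from all genes together, and only in small part from the gene itself.

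Hedgehog ligands bind Patched (Ptch1), a membrane receptor that holds the transducer Smoothened (Smo) inactive when no ligand is present. Gas1 and Boc, with Cdon, are co-receptors that present the ligand to Patched, and Hhip is a membrane protein that sequesters it. Active Smoothened, at the primary cilium, releases the zinc finger factors Gli1, Gli2 and Gli3 from their inhibitor Sufu. In the absence of ligand, PKA, GSK3 and CK1 phosphorylate Gli2 and Gli3, which leads to their degradation or, chiefly for Gli3, to a truncated repressor. Gli1, Ptch1 and Hhip are themselves transcribed in response to the pathway, whereas transcripts of Gas1 and Boc are known to be repressed by it in the embryo. Fibroblasts and other mesenchymal cells are typical receivers of the signal.

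Positions are on mm10 (GENCODE M21). Gas1 (ENSMUSG00000052957) is at chr13:60174405-60177365, Boc (ENSMUSG00000022687) at chr16:44485049-44558897, Ptch1 (ENSMUSG00000021466) at chr13:63508328-63573598, and Hhip (ENSMUSG00000064325) at chr8:79965851-80058006, all on the minus strand. Smo (ENSMUSG00000001761) is at chr6:29735503-29761365 and Sufu (ENSMUSG00000025231) at chr19:46396896-46488804, both on the plus strand. Gli1 (ENSMUSG00000025407) is at chr10:127329882-127341974 on the minus strand, Gli2 (ENSMUSG00000048402) at chr1:118834132-119053619 on the minus strand, and Gli3 (ENSMUSG00000021318) at chr13:15463235-15730026 on the plus strand. Each is a protein-coding gene, and the counts cover its exons. Gas1 shares 589 exonic bases, 19.9% of its exons, with the lincRNA Gm48488 on the opposite strand, which had 0 to 16 counts per library. Gli1 shares 62 bases, 1.24% of its exons, with Arhgap9 on the opposite strand. The strand setting is not given in the sources used here, so reads from shared bases cannot be told apart.

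Promoter sequences are shown for Gas1 and Gli2, the members that fell the most with SSTC3, and for Smo, the member that rose the most with the knockdown. Each is the 250 bases before the RefSeq start (GRCm38.p6, the build of mm10), written 5′ to 3′ on the gene's strand. Gas1 is chr13:60177536-60177785 (minus), Gli2 is chr1:119053620-119053869 (minus) and Smo is chr6:29735247-29735496 (plus). Capitals mark the CCAAT box (CCAAT, or ATTGG for the other strand) and the GC box (GGGCGG or CCGCCC), general promoter elements that were chosen after the sequences were read.

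Gas1: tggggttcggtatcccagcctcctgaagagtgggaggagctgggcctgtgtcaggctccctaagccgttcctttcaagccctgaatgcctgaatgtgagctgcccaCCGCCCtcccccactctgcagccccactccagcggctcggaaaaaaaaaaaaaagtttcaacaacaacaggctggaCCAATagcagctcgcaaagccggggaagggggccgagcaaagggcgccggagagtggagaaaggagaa

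Gli2: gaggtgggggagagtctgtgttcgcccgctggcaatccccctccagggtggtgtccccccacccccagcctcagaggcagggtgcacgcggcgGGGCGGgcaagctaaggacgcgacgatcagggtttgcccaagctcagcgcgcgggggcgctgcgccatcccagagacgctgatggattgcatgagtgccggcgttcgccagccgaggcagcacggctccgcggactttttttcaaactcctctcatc

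Smo: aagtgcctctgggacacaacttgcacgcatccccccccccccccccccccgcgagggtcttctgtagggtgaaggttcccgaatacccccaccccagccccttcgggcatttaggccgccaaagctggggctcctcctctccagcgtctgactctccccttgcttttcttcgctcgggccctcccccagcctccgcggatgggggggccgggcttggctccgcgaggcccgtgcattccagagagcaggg

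Gas1 holds 1 CCAAT box and 1 GC box, Gli2 holds 1 GC box, and Smo holds neither. Of all 32851 RefSeq promoter windows, 33.8% hold a CCAAT box and 32.7% a GC box. The windows are rich in G and C, with 58.8% in Gas1, 67.2% in Gli2 and 68.4% in Smo against a median of 52.4% over all windows. The Gli consensus GACCACCCA was searched on both strands of the 300 bases from 250 before to 50 after the start, as was its looser form GACCNCCCA, which includes it. Neither matched in the windows of the 7 members that the table holds (Gas1, Gli2, Gli3, Hhip, Ptch1, Smo and Sufu). They were found in 0.253% and 0.977% of all windows. This says only that these letters are not in these windows.

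Libraries held 16063627 to 19427506 counts, and 20266 to 22950 genes had a count. In the 4 libraries labelled BMDM the 20 macrophage markers summed to only 10.4 to 13.6 CPM (counts scaled to the library total), 9 to 13 of them had 0 counts, and the defining markers Adgre1 and Itgam were at 0 in all 4. The 15 fibroblast markers summed to 9246 to 10630 CPM there, against 4255 to 5127 CPM in the sets labelled MEF. Vim alone made up 2531 to 2936 CPM of the former and 1586 to 3555 CPM of the latter. The macrophage label thus does not match the transcripts, and these 4 are called the libraries labelled BMDM. The macrophage list reached 21.2 to 23.7 CPM with overexpression and its controls. It reached 270 to 327 CPM in the knockdown set, of which Cd68 made up 246 to 296 CPM. Csnk1a1 was checked first. Among the 3 comparisons it fell in the knockdown alone, from 325.0 and 354.1 CPM in knockdown_control to 171.5 and 169.2 CPM in CK1a_siRNA (log2 fold change −0.96 ± 0.05, SE, n = 2 per group, adjusted p = 2.88e-27 by edgeR). CK1a_OV had 229.3 and 244.4 CPM against 237.8 and 234.7 CPM (−0.01 ± 0.04, adjusted p = 0.901), so the overexpression rests on its label. SSTC3 had 426.4 and 424.0 CPM against 413.2 and 430.0 CPM (0.07 ± 0.04, adjusted p = 0.111).

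Receptor, transducer and Gli transcripts were present in all 3 cell sets, and transcripts of the ligands were close to absent. Shh had 0 counts in all 12 libraries, Ihh at most 4 and Dhh at most 14 per library. Hhip was close to absent as well, with 5 counts over the 12 libraries, at most 3 in any library, and 0 in 9 of them. A count of 0 allows a level of up to 0.154 to 0.187 CPM here, counting error only. Hhip could therefore not be tested in any comparison. The other 8 members were detected, apart from Gli2 in the knockdown set, and the plot of CPM by library shows each of them.

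**Figure D1:**
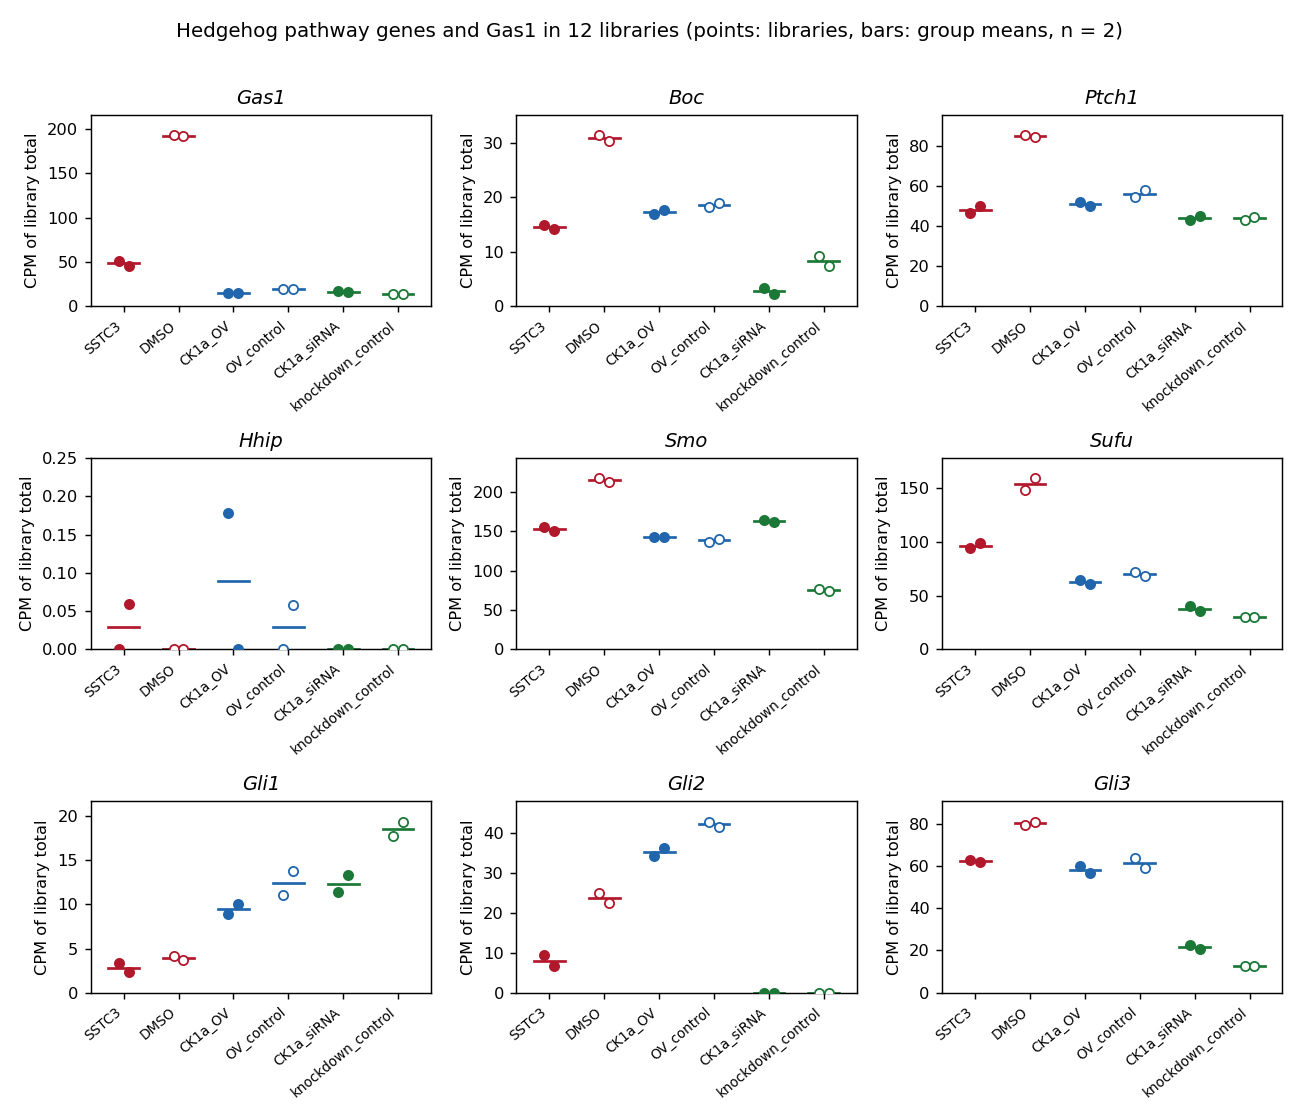
CPM of the library total (y axis, linear from 0, scaled separately for each gene) for the 9 members in the 6 groups (x axis). Points are libraries, filled for the treated and open for the control group of each comparison, and bars are means of n = 2. Gas1 stands highest with DMSO (191.9 and 193.0 CPM), Gli2 is at 0 or 1 count in the knockdown set, and Hhip has at most 3 counts.

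Per exonic length, the order of the members differed between the cell sets. Levels are given here as RPKM, the CPM divided by the exonic length in kilobases, as mean ± SD of n = 2. That length joins the exons of all annotated transcripts of a gene (14185 bases for Ptch1, 4995 for Gli1). It can exceed the length of a single transcript, so orders and ratios between genes depend on this choice. In the DMSO cells Gas1 was the most abundant member at 65.0 ± 0.251 RPKM, followed by Smo (38.1 ± 0.618) and Sufu (19.96 ± 1.03). In OV_control Smo led with 24.6 ± 0.388 RPKM, then Sufu (9.12 ± 0.289), and the range of Gli3 (6.40 ± 0.373) overlapped those of Gas1 (6.47 ± 0.119) and Gli2 (6.15 ± 0.130), which did not overlap each other. In knockdown_control Smo also led, at 13.4 ± 0.346 RPKM, ahead of Gas1 (4.71 ± 0.152), and Sufu (3.92 ± 0.0685) and Gli1 (3.71 ± 0.226) overlapped. Smo was thus first or second in every group. Gli1, a readout of the pathway, was the lowest tested member with DMSO (0.791 ± 0.0599 RPKM) and with OV_control (2.48 ± 0.390). In knockdown_control it stood above Ptch1 (3.09 ± 0.0704), Boc (1.87 ± 0.298) and Gli3 (1.33 ± 0.0145) in RPKM. In CPM, Ptch1 was above Gli1 there (43.85 against 18.54).

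Between the groups, 6 members (Gas1, Boc, Ptch1, Smo, Sufu and Gli3) were at their highest with DMSO. In absolute CPM, Gas1 showed the widest spread of group means, from 192.5 with DMSO through 48.2 with SSTC3 and 19.1 in OV_control to 13.9 in knockdown_control. No neighbouring groups in the order of all 6 overlapped. Gli1 ran the other way, from 18.5 CPM in knockdown_control to 3.95 with DMSO and 2.83 with SSTC3, where OV_control (12.4) and CK1a_siRNA (12.3) overlapped. Gli2 was highest in OV_control (42.3 CPM) and had 1 count in each CK1a_siRNA library and 0 in each knockdown_control library. Cells, treatment and the list of counted features differ between the sets and cannot be told apart.

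SSTC3 against DMSO asks what a CK1α activator does in the cells labelled BMDM. Of the 9 members, 8 had enough counts to be tested and 7 fell, with none higher. In the same fit 26.5% of 14151 genes fell and 27.1% rose, 53.6% in all, so 7 in 8 lies above the background. The members were chosen with earlier results of these data known, so this excess is a description and no independent support. The groups did not overlap in any of the 8, against 75.3% of all genes tested. The median log2 fold change of the 8 was −0.69, against 0.01 over all genes tested. In these bulk libraries, fewer cells of a type and less RNA per cell cannot be told apart.

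Both co-receptors among the members fell, Gas1 more than any other member. Gas1, a membrane-anchored co-receptor first known as a growth arrest gene, had 50.99 and 45.42 CPM with SSTC3 against 193.0 and 191.9 CPM with DMSO. Both treated libraries lay far below both controls, and Gas1 was 3.84-fold lower (log2 −1.94 ± 0.06, SE, n = 2 per group, adjusted p = 3.4e-97 by edgeR). Boc, an immunoglobulin-domain co-receptor, had 14.90 and 14.21 CPM against 31.43 and 30.40 CPM. The groups did not overlap, and the change was −1.03 ± 0.10 (adjusted p = 1.33e-18). Cdon, the further co-receptor, fell by a smaller amount, to 45.87 and 45.30 CPM from 65.50 and 66.32 CPM (−0.48 ± 0.07, adjusted p = 2.07e-10). The ratio of Gas1 to Boc per length went from 9.36 ± 0.186 with DMSO to 4.97 ± 0.242 with SSTC3 (SD, n = 2).

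The receptor and the membrane transducer fell less than Gas1 and Boc. Ptch1 had 46.52 and 49.84 CPM with SSTC3 and 85.38 and 84.36 CPM with DMSO. This is a fall by 0.76 ± 0.06 on the log2 scale (adjusted p = 1.35e-24 by edgeR), and the groups were well apart. Smo had 155.4 and 149.6 CPM against 216.9 and 211.9 CPM, a change of −0.44 ± 0.04 (adjusted p = 4.42e-18). Sufu, the cytoplasmic inhibitor of Gli, had 93.92 and 99.38 CPM against 148.0 and 159.1 CPM (−0.61 ± 0.05, adjusted p = 4.09e-25). A receptor that restrains the pathway, its activator and its inhibitor were thus all lower, without overlap between the groups.

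Among the Gli factors, Gli2, the main transcriptional activator of the pathway, changed the most. It had 9.48 and 6.67 CPM with SSTC3, from 161 and 113 counts, against 25.04 and 22.56 CPM with DMSO. The treated libraries differed from each other more than the controls did, but both lay below them, and the change was −1.50 ± 0.13 (adjusted p = 1.51e-24 by edgeR), or 2.84-fold lower. Gli3, the main source of repressor, had 63.00 and 61.87 CPM against 79.23 and 80.92 CPM (−0.30 ± 0.06, adjusted p = 7.5e-06). Gli1 had only 57 and 39 counts against 71 and 63, or 3.36 and 2.30 CPM against 4.16 and 3.74 CPM. Its treated libraries were the lower ones, yet the log2 change, −0.43 ± 0.25, missed the threshold (adjusted p = 0.146). All 7 calls held when any 1 of the 4 libraries was left out and with each other setting tried.

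**Figure D2:**
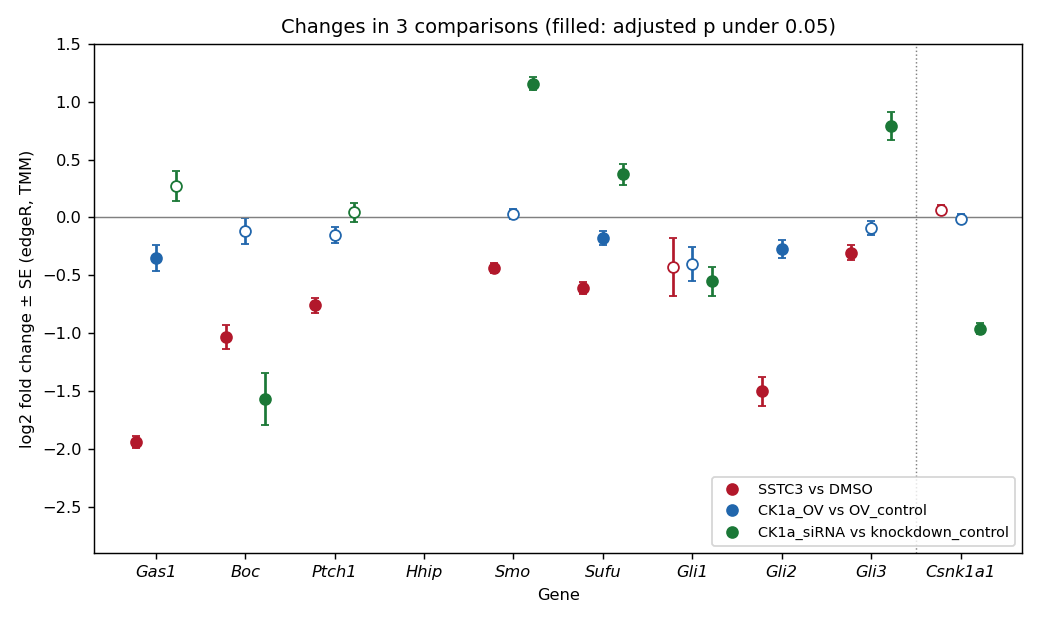
Log2 fold change (y axis, from edgeR) of each member and of Csnk1a1 (x axis) in the 3 comparisons, with bars of ±1 SE. Filled points passed an adjusted p of 0.05 and open points did not. With SSTC3 all tested members lie below 0, down to −1.94 for Gas1, whereas the knockdown ranges from −1.57 for Boc to 1.16 for Smo. Hhip was not tested, nor was Gli2 in the knockdown.

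Other cell features moved in the same libraries. The 12 proliferation genes summed to 3306 to 3385 CPM with SSTC3 against 3666 to 3736 CPM with DMSO, and the fibroblast markers to 9246 to 9342 against 10320 to 10630 CPM. The mesenchymal genes Pdgfrb (116.0 and 124.9 against 217.3 and 214.7 CPM) and Prrx1 (138.5 and 136.1 against 239.3 and 247.9 CPM) were lower in the treated libraries too, whereas Vim, of the same fibroblast list, was higher (2936 and 2919 against 2574 and 2531 CPM). The 8 muscle and nerve markers summed to 35.2 to 37.6 CPM with SSTC3 against 16.0 to 17.2 CPM with DMSO. Their part in the result was not tested.

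Overexpression against its control asks what differs in MEF labelled with CK1a overexpression, where Csnk1a1 RNA itself was not higher. The differences were small, and 3 of the 8 tested members fell with none higher, where 7.57% of 13958 genes fell and 5.78% rose, 13.3% in all. The groups did not overlap in 7 of the 8, against 53.8% of all genes tested. The median log2 fold change of the members was −0.16, against 0.00 over all genes. Gli2 had 34.38 and 36.23 CPM in CK1a_OV against 42.88 and 41.62 CPM in OV_control (−0.27 ± 0.08, SE, n = 2 per group, adjusted p = 0.0125 by edgeR). Gas1 had 15.29 and 15.02 CPM against 19.39 and 18.89 CPM (−0.35 ± 0.12, adjusted p = 0.0337). Sufu had 64.54 and 60.78 CPM against 71.68 and 68.54 CPM (−0.18 ± 0.06, adjusted p = 0.0371). In each of these the treated libraries lay below both controls, by at most 1.28-fold. Proliferation genes summed to 3273 to 3292 CPM against 3187 to 3202 CPM, and fibroblast markers to 4386 to 4394 against 4891 to 4948 CPM, and their part in the result was not tested.

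The remaining members did not pass in the overexpression comparison. Gli1 had 8.86 and 10.07 CPM against 11.02 and 13.78 CPM, without overlap, but its controls were spread widely and the change was −0.40 ± 0.15 (adjusted p = 0.06). Ptch1 had 51.99 and 50.11 CPM against 54.31 and 58.08 CPM (−0.15 ± 0.07, adjusted p = 0.122). Gli3 (−0.09 ± 0.06, adjusted p = 0.384), Boc (−0.12 ± 0.11, adjusted p = 0.559) and Smo (0.03 ± 0.04, adjusted p = 0.705) did not pass either. The 3 calls rest on few libraries: leaving out any 1 library left 1 member called, with adjusted p up to 0.124 for Gli2, 0.284 for Sufu and 0.189 for Gas1, and without OV_control replicate 1 Gli1 passed (adjusted p = 0.0305). DESeq2 called 0 of the members (it gave 4 of the 9 no adjusted p), with 1 at an unadjusted p under 0.05, where edgeR had 5 at that level.

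Knockdown against its control asks what less CK1α does in MEF. Here the members split: of 7 tested, Smo, Gli3 and Sufu rose, Boc and Gli1 fell, and Gas1 and Ptch1 did not pass. In this fit 28.3% of 14832 genes rose and 26.4% fell, 54.7% in all, so 5 calls in 7 are not far from the background. The groups did not overlap in 6 of the 7, against 75.7% of all genes tested. The median log2 fold change of the 7 was 0.27, against −0.01 over all genes.

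Smo changed the most among the rises. It had 164.7 and 161.4 CPM with CK1a_siRNA against 76.45 and 73.70 CPM in knockdown_control, which is 2.23-fold higher (log2 1.16 ± 0.06, SE, n = 2 per group, adjusted p = 1.44e-27 by edgeR). Both treated libraries agreed closely and lay far above both controls. Gli3 had 22.39 and 20.72 CPM against 12.64 and 12.83 CPM (0.79 ± 0.12, adjusted p = 6.14e-08), and Sufu 40.30 and 35.86 CPM against 30.50 and 29.76 CPM (0.37 ± 0.09, adjusted p = 0.000291). Neither overlapped its controls. Ptch1, the brake on Smo, was level at 43.24 and 44.96 CPM against 43.14 and 44.55 CPM (0.04 ± 0.08, adjusted p = 0.68), and its groups overlapped. The ratio of Smo to Ptch1 per length thus went from 4.32 ± 0.210 in the controls to 9.34 ± 0.391 with siRNA (SD, n = 2), while it was 6.38 ± 0.0491 with DMSO and 8.004 ± 0.608 with SSTC3, and 6.21 ± 0.197 in OV_control and 7.05 ± 0.142 in CK1a_OV.

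Boc fell the most with the knockdown, from 149 and 132 counts to 64 and 41. This is 3.29 and 2.16 CPM against 9.28 and 7.40 CPM, a change of −1.57 ± 0.22 (adjusted p = 1.08e-08 by edgeR). Cdon, at 2.93 and 2.26 against 5.73 and 5.83 CPM, fell with it (−1.11 ± 0.24, adjusted p = 6.19e-05). Gas1, in contrast, had 16.93 and 15.88 CPM against 14.26 and 13.62 CPM. Its treated libraries were the higher ones, but 0.27 ± 0.13 on the log2 scale missed the threshold (adjusted p = 0.0617), though it passed with all 12 libraries in the fit (0.23, adjusted p = 0.0442). The ratio of Gas1 to Boc per length was 9.40 ± 2.37 with siRNA and 2.54 ± 0.323 in the controls (SD, n = 2). Gli1 fell, from 17.74 and 19.33 to 11.38 and 13.30 CPM (−0.55 ± 0.13, adjusted p = 0.000166). Gli1 was thus lower while the transducer Smo was higher, and Ptch1, which is also transcribed in response to the pathway, was level (0.04 ± 0.08).

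Marker levels differed between these groups as well. Proliferation genes summed to 1779 to 1804 CPM with siRNA against 1260 to 1296 CPM, and fibroblast markers to 5014 to 5127 against 4255 to 4339 CPM. The macrophage marker list summed to 324 to 327 CPM against 270 to 277 CPM, and its defining member Adgre1 was at most 0.158 CPM. Single genes of the fibroblast list went both ways. Pdgfrb, a receptor of mesenchymal cells, had 98.93 and 96.59 CPM against 230.2 and 236.2 CPM, and Pdgfra 24.24 and 24.45 against 47.93 and 49.09 CPM. Vim (3465 and 3555 against 2670 and 2637 CPM) and Prrx1 (10.4 and 10.41 against 9.338 and 9.303 CPM) were higher. Arhgap9, which overlaps Gli1 on the other strand, had 426 and 407 counts against 298 and 294, more than Gli1 itself with siRNA. The part of these in the results was not tested.

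Whether the comparisons differed from each other was tested as a contrast of fold changes in a single fit of all 12 libraries. The effect of SSTC3 was lower than that of the knockdown for Gas1 (difference −2.19 ± 0.12, adjusted p = 1.29e-29 by edgeR), Smo (−1.56 ± 0.07, adjusted p = 7.87e-37), Gli3 (−1.07 ± 0.12, adjusted p = 6.09e-13), Sufu (−0.96 ± 0.09, adjusted p = 3.74e-15) and Ptch1 (−0.77 ± 0.10, adjusted p = 1.11e-10). For Smo, Gli3 and Sufu the comparison with the activator and the one with the siRNA passed in opposite directions. Boc fell in both, and more with the knockdown (difference 0.57 ± 0.22, adjusted p = 0.0312), but that difference did not pass without SSTC3 replicate 1, DMSO replicate 2, CK1a_siRNA replicate 2 or knockdown_control replicate 1 (adjusted p up to 0.404), nor with library totals (0.0507) or no low-count filter (0.0596). For Gli1 no difference was detected (0.16 ± 0.27, adjusted p = 0.703). For Gli2 the difference did not pass (−4.67 ± 2.15, adjusted p = 0.069). With at most 1 count per library in the knockdown set, this test says little about Gli2, which is still counted among the tested members. Of 17105 genes in this fit, 45.1% differed, 21.6% lower, and 6 of the 8 tested members did, 5 of them lower and Boc higher (23.5% of genes were higher).

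The change with SSTC3 was lower than that with overexpression in 6 of 8 members, where 32.7% of genes differed, 15.5% lower and 17.2% higher (shares of all genes tested). Of these members, Gas1, Gli2 and Sufu were also called lower in the overexpression comparison, and Smo, Ptch1 and Boc were not called there. The differences were −1.59 ± 0.12 for Gas1 (adjusted p = 6.58e-21 by edgeR), −1.24 ± 0.17 for Gli2 (adjusted p = 1.65e-09), −0.92 ± 0.17 for Boc (adjusted p = 7.07e-06) and −0.61 ± 0.10 for Ptch1 (adjusted p = 1.81e-07), with Smo (−0.47 ± 0.07) and Sufu (−0.44 ± 0.09) behind. Overexpression and knockdown differed in 5 of 8 members, where 35.1% of genes differed, 18.3% lower and 16.8% higher. Gli2, among the 8, did not pass (−3.44 ± 2.08, adjusted p = 0.212), and its counts in the knockdown set were too few to say more. The change was lower in the overexpression comparison than in the knockdown for Smo (−1.09 ± 0.07, adjusted p = 1.93e-25), Gli3 (−0.85 ± 0.12, adjusted p = 4.42e-09), Gas1 (−0.59 ± 0.14, adjusted p = 0.000304) and Sufu (−0.52 ± 0.10, adjusted p = 7.86e-06). For Boc it was higher (1.48 ± 0.22, adjusted p = 2.58e-08). Cells and intervention differ together between the comparisons and cannot be told apart.

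The mix of Gli transcripts differed between the cell sets and shifted within them. Per length, Gli3 made up 66.3 ± 1.99% of the summed Gli level with DMSO, Gli2 27.5 ± 1.61% and Gli1 6.27 ± 0.381% (SD, n = 2). With SSTC3 Gli2's share was 14.2 ± 2.61% and Gli3's 79.0 ± 3.99%, and the sum went from 12.6 ± 0.190 to 8.25 ± 0.523 RPKM. In the overexpression set the mix was nearly even between Gli2 (40.9 ± 0.555% in OV_control, 39.2 ± 1.06% in CK1a_OV) and Gli3 (42.6 ± 2.16% and 46.3 ± 2.22%). The knockdown set held almost only Gli1 and Gli3. Gli1 was 73.6 ± 0.969% in the controls and 52.2 ± 4.12% with siRNA, while the sum was 5.04 ± 0.240 and 4.73 ± 0.150 RPKM. The rise of Gli3 and the fall of Gli1 thus nearly balanced there. With 2 libraries a group no exact test of a share can pass, so these are descriptions.

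**Figure D3:**
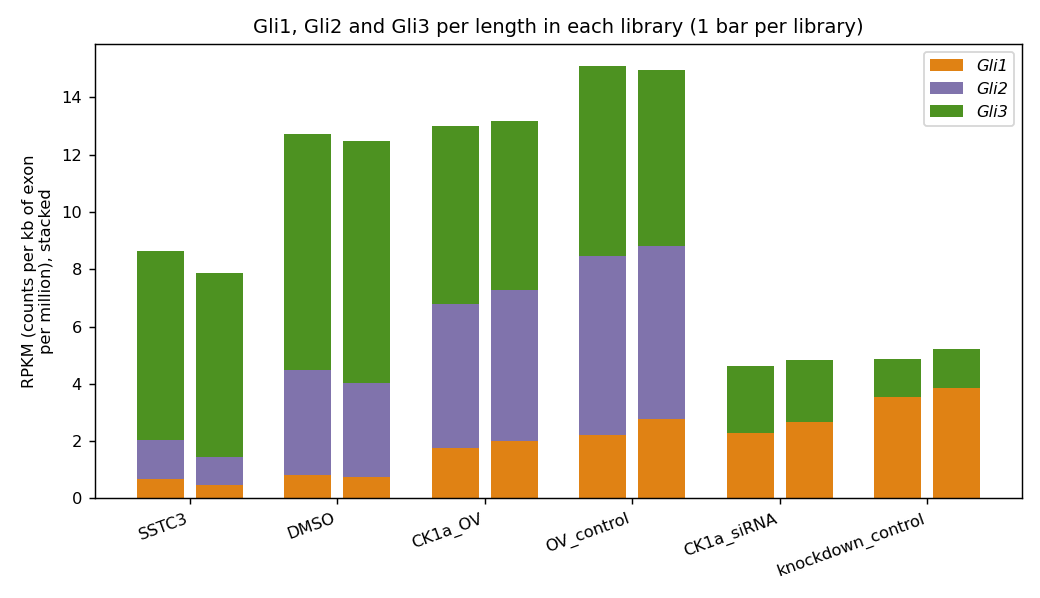
RPKM (y axis, linear, stacked) of Gli1, Gli2 and Gli3 in each of the 12 libraries (1 bar each, grouped on the x axis). Gli3 takes the largest part with SSTC3 and DMSO, Gli2 and Gli3 are nearly even in the overexpression set, and Gli2 has at most 1 count in the knockdown set, where Gli1 makes up 73.6% of the controls' sum.

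The other 100 genes of 6 pathway lists place the members in context. With SSTC3, 89 of them were tested and 57.3% were called, against 53.6% of all genes tested. Of the 89, 32 fell and 19 rose, where 26.5% of all genes tested fell and 27.1% rose. Their median log2 fold change was −0.07, against 0.01 over all genes tested. Of the 14 further signal transducers 6 fell and 1 rose. Evc2 (−0.68 ± 0.06, adjusted p = 1.52e-21 by edgeR) and Evc (−0.63 ± 0.07, adjusted p = 2.2e-16), partners that relay the signal of Smo at the cilium base, fell to 51.82 and 53.79 from 89.25 and 86.92 CPM and to 40.75 and 44.83 from 65.74 and 72.25 CPM. Gnas, whose product Gαs raises cAMP, rose (0.36 ± 0.06, adjusted p = 4.43e-09). Among 6 further receptors 3 fell, Cdon among them, and 2 of 3 ligand-release genes, Disp1 (−0.39 ± 0.11) and Hhat (−0.56 ± 0.19), fell as well. Hhat did not pass without SSTC3 replicate 1 (adjusted p = 0.139) or with DESeq2 (adjusted p = 0.113).

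Kinases and ubiquitin ligases that act on Gli had 12 of 21 lower and 2 higher with SSTC3, where 26.5% of all genes tested were lower and 27.1% higher. Itch (−0.44 ± 0.06, adjusted p = 6.98e-11 by edgeR), a ubiquitin ligase, and Prkar2a (−0.32 ± 0.05, adjusted p = 2.55e-09), a regulatory subunit of PKA, fell, while Prkar1a (0.18 ± 0.04) and Numb (0.32 ± 0.09) rose. Numb did not pass with DESeq2 (adjusted p = 0.0551). The primary cilium list was split, 7 of 28 higher and 6 lower, with Bbs1 (0.48 ± 0.10) and Arl13b (0.37 ± 0.08) up and the dynein Dync2h1 (−0.58 ± 0.11) and the kinesin Kif3b (−0.37 ± 0.07) down. Of the targets of Gli other than the members, 9 of 18 rose and 3 fell. The cyclin Ccnd1 rose to 41.57 and 45.00 from 21.58 and 20.96 CPM (1.08 ± 0.09, adjusted p = 4.41e-26) and Spp1 (osteopontin) to 600.1 and 579.5 from 353.5 and 368.4 CPM (0.76 ± 0.04, adjusted p = 2.61e-55). The BMP antagonist Grem1 fell to 70.31 and 67.83 from 185.1 and 196.1 CPM (−1.41 ± 0.05, adjusted p = 6.35e-75), as did Bmp4 (−1.30 ± 0.20).

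**Figure D4:**
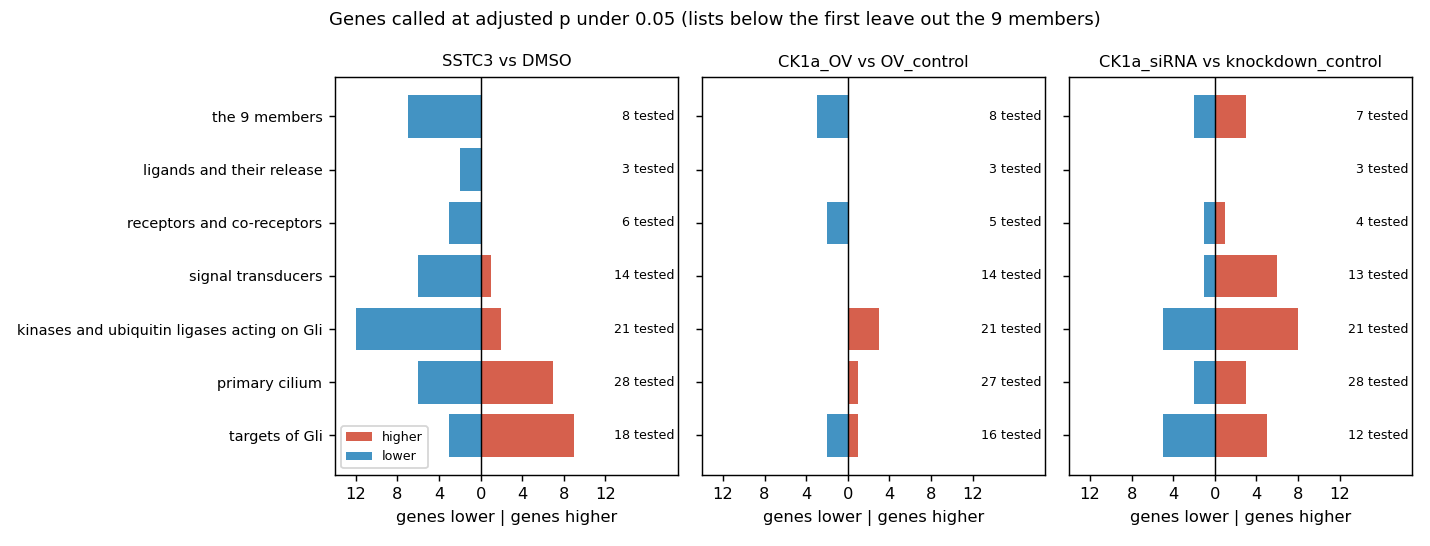
Number of genes (x axis) called lower (left, blue) and higher (right, red) at an adjusted p of 0.05 in the 9 members and in each further list (y axis), with the number tested at the right of each panel. With SSTC3 the members are called lower only (7 of 8), whereas targets of Gli beyond the members are higher in 9 and lower in 3 of 18. In the knockdown most lists hold calls in both directions.

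In the overexpression comparison few of these genes were called: 5 of 86 rose and 4 fell, 10.5% in all. Of all genes tested, 5.78% rose and 7.57% fell, 13.3% in all. The endocytic receptor Lrp2 fell (−0.20 ± 0.04, adjusted p = 0.000568 by edgeR), and Foxl1, a forkhead target gene, had 6.60 and 6.73 against 9.58 and 11.63 CPM (−0.68 ± 0.16, adjusted p = 0.0025). Ccnd1 (−0.09 ± 0.03) was lower and Itch (0.21 ± 0.05), Csnk1g3 (0.18 ± 0.05), Ift172 (0.43 ± 0.15) and Foxm1 (0.14 ± 0.04) were higher. Of the genes named here, only Lrp2 was called whichever single library was left out. Signal transducers had 0 of 14 called by edgeR and by DESeq2, and 0 at an unadjusted p under 0.05 by either tool.

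With the knockdown, 23 of 81 rose and 14 fell, 45.7% in all. Of all genes tested, 28.3% rose and 26.4% fell, 54.7% in all. Of 13 signal transducers 6 rose, 1 fell and 6 did not pass, with Arrb1, a β-arrestin (0.67 ± 0.07, adjusted p = 6.22e-14 by edgeR), and Rab23, a small GTPase that opposes the pathway (0.67 ± 0.10, adjusted p = 2.57e-08), above their controls and Efcab7 (−1.05 ± 0.20), a partner of Evc and Evc2, below. Among the kinases and ligases 8 of 21 rose and 5 fell, Csnk1a1 included. Csnk1d, the CK1δ gene, rose to 217.8 and 232.1 from 163.2 and 158.7 CPM (0.52 ± 0.05, adjusted p = 1.73e-14), and Cul1 rose (0.43 ± 0.08), while Prkacb (−0.43 ± 0.07) and the Gli-directed adaptor Spop (−0.42 ± 0.08) fell. In the cilium list 17.9% of 28 were called, against 54.7% of all genes tested. Of the 28, 3 rose, Ift122 (0.56 ± 0.10) and Fuz (0.87 ± 0.17) among them. The 2 that fell were Ofd1 (−0.41 ± 0.14) and Cep290 (−0.38 ± 0.14), both calls that ended when some single libraries were left out.

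Targets of Gli were called in 10 of 12 cases with the knockdown, 5 in each direction, where 54.7% of all genes tested were called, 28.3% higher and 26.4% lower. Ccnd2, a D-type cyclin, rose to 261.4 and 269.3 from 128.4 and 152.3 CPM (0.95 ± 0.05, adjusted p = 1.8e-17 by edgeR) and the cell cycle factor Foxm1 to 87.50 and 86.13 from 60.76 and 53.63 CPM (0.64 ± 0.07, adjusted p = 1.36e-12). Prdm1 fell to 2.37 and 3.58 from 14.94 and 17.26 CPM (−2.40 ± 0.18, adjusted p = 2.56e-18) and Spp1 to 897.0 and 906.7 from 1402 and 1427 CPM (−0.61 ± 0.04, adjusted p = 5.42e-22). The targets thus moved in no common direction.

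The genes whose pattern was most like that of Gas1 were sought over all 12 libraries, after the mean of each cell set was taken out, among 9163 genes with a mean of at least 4 CPM in each set, on log2(CPM + 1). They were Bcl9l (Pearson r = 0.991), Prrx1 (0.987), Mllt6 (0.985), Rps6ka1 (0.985) and Gnaq (0.984). The 12 points share libraries, and the fall with SSTC3 is the main movement in all of them, so this is a description. Gli1 was below that level in the SSTC3 set and was not compared.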

How the data were processed

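RNA-seq libraries from polyA+ RNA were sequenced by the submitters, and the deposited files hold whole-number counts per gene with no scaling. Per the submitters' processing notes, reads were aligned with HISAT2 and counted with featureCounts on mm10. For versions, annotation and strand setting, nothing is given in the sources used here. Symbols, positions and exonic lengths came from GENCODE M21, and promoters from RefSeq (GRCm38.p6).

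Each comparison was fitted on its own 4 libraries with edgeR 4.0.16 (R 4.3.3): filterByExpr, TMM factors, robust quasi-likelihood F test, no block, Benjamini-Hochberg over all genes tested, threshold 0.05. SE is the absolute log2 fold change divided by the square root of F. Levels are CPM of the library total, without TMM. Each replicate pair differed by more than sampling noise (chi-square 2.29 to 3.61 per degree of freedom), so none was counted as a copy. Members and lists were chosen with earlier results of these data known. Named genes were the members, Csnk1a1 and, per list and direction, the 2 called genes with the smallest adjusted p, of which 1 gene is not reported here. The 5 genes most correlated with Gas1 were also named. The same was planned for Gli1, which was below the level required. The procedure was tested on simulated data.

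Alternatives were RLE factors, library totals, DESeq2 1.42.0, no low-count filter, a minimum of 1 CPM in 2 libraries, 1 fit of all 12, the replicate block and leaving out each library. No list was tested as a set. Protein sequences were not used here.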

Additional observations from a re-analysis of the deposited data

How the results depend on the processing

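Member calls in the SSTC3 and knockdown comparisons stayed within 1.5 times under every alternative run, 7 in each SSTC3 fit and 5 or 6 in each knockdown fit. The overexpression comparison did not hold in this way. Its 3 member calls became 0 with DESeq2, 1 with no filter on low counts, 1 with all 12 libraries in the fit and 1 when any single library was left out (lowest and highest both 1). Its 1863 called genes became 519 with DESeq2, 1188 with all 12 libraries and 1065 to 1478 without 1 library. Its 9 other pathway genes became 1 with DESeq2, 5 with all 12 libraries and 4 to 9 without 1 library. The cause was not tested, though leaving out a library leaves a group with 1 sample, which is assumed to vary like the others. No result reversed. With library totals the median of all genes moved by −0.06 (SSTC3), 0.01 (overexpression) and −0.04 (knockdown) on the log2 scale.

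Replicate numbers were not used as pairs, since deviations of same-numbered libraries were uncorrelated (r = −0.016, −0.010 and 0.005). With the replicate block, 7, 3 and 5 members, 50, 8 and 37 other pathway genes and 7303, 1768 and 8066 genes in all were called for SSTC3, overexpression and knockdown, against 7579, 1863 and 8113 without it. Of the named genes, Ift172 alone lost its call there (overexpression, adjusted p = 0.0579). Counts were too few to test Hhip in any comparison, or Gli2 in the knockdown comparison.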
